A study of Arabidopsis thaliana with 9 samples.

Results

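Cytokinin is removed by a small family of enzymes and sensed by a small family of receptors, and the 10 genes of both families were followed here in Arabidopsis stamens, gynoecia and leaves. The 10 loci were taken from a fixed list, out of 32833 loci in the deposited count table: the 7 cytokinin oxidase/dehydrogenase genes CKX1 to CKX7 and the 3 cytokinin receptor genes AHK2, AHK3 and AHK4. The annotation paired all 10 loci with these names. All 9 libraries came from untreated Col-0, the reference accession, with 3 libraries each of stamens (labelled male), gynoecium (labelled female) and leaf, all labelled as sampled at flower bud differentiation from leaf and immature floral buds. The labels name no transgene, mutation or plant age, and leave unsaid whether replicates were separate plants, so the spread between them may be technical.

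CKX enzymes break cytokinins down irreversibly by cutting off their side chain, and they differ in where in the cell they work: CKX7 is cytosolic, CKX1 and CKX3 carry signals for the secretory pathway or vacuole, and CKX2, CKX4, CKX5 and CKX6 are regarded as secreted. AHK2, AHK3 and AHK4 (also known as CRE1 or WOL) are membrane histidine kinases that bind cytokinin and pass phosphate through AHP proteins to response regulators in the nucleus. In flowers, cytokinin is known for promoting meristem activity and ovule formation. Plants without CKX3 and CKX5 form larger floral meristems and more ovules, and plants that lack all of the AHK receptors are dwarfed and nearly sterile.

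Total counts ran from 16042169 to 18756860 per library. The tissue labels were checked against marker genes fixed for each tissue. The summed level of 8 stamen markers was 3639 to 3696 CPM in stamens against 19.1 to 20.7 CPM in gynoecia, where 5 of the 8 were at 0, and at most 0.0712 CPM in leaf. The sum of 6 gynoecium markers was 486 to 499 CPM in gynoecia, 64.9 to 65.4 CPM in stamens and 2.75 to 3.56 CPM in leaf. Of the 6, 1 was at 0 in stamens and 5 in leaf. Nearly all of the stamen sum and all of the leaf sum came from SPT, at 63.7 CPM in stamens and 3.12 CPM in leaf. That of 5 leaf photosynthesis markers was 12104 to 12901 CPM in leaf, against 496 to 556 CPM in stamens and 616 to 671 CPM in gynoecia. These are whole organs, so fewer cells of a type and less RNA per cell cannot be told apart in any value below.

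Stamens carried far more cytokinin oxidase transcript than the other tissues, and from different members of the family. CKX2, CKX3 and CKX5 were all highest in stamens, CKX7 was lowest there, and CKX4 was counted in leaf alone. Levels of a gene are given as CPM, counts scaled to a common library size after TMM (a factor that evens out library composition). Differences were tested with edgeR's quasi-likelihood test, and p-values were adjusted by the Benjamini-Hochberg method over 20827 genes. A group in which all libraries were at 0 is compared at 3 counts per library, which gives a lower bound on the fold. That floor is 0.178 CPM in stamens, 0.131 CPM in gynoecia and 0.219 CPM in leaf, and covers counting error only.

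CKX2 (AT2G19500) was a stamen transcript in these libraries. It had 919, 945 and 876 counts in stamen replicates 1 to 3, or 53.2, 55.7 and 54.0 CPM, and no count in any gynoecium or leaf library. Stamens thus stood at least 416-fold above gynoecia (adjusted p = 6.78e-47) and at least 248-fold above leaf (adjusted p = 8.57e-44). CKX2 shares 38.6% of its exon bases with genes on the opposite strand. One of these, AT2G19490, had 119 to 147 counts in stamens and 433 to 533 in gynoecia, and whether the counting used strand is not given in the sources used here.

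CKX3 (AT5G56970) had nearly the same distribution. Its stamen levels were 38.6, 43.2 and 44.0 CPM, its gynoecium counts were 11, 3 and 9, or 0.461, 0.136 and 0.389 CPM, and leaf had no count. The stamen and gynoecium values did not overlap and differed 128-fold (log2 difference 6.95, SE 0.164, adjusted p = 2.76e-43). Stamens were at least 192-fold above leaf (adjusted p = 3.91e-41). Gynoecia were called higher than leaf (adjusted p = 6.99e-05), on 23 counts in all, with a mean of 0.329 CPM against the leaf floor of 0.219 CPM. Summed stamen markers stood at 19.1 to 20.7 CPM in those same gynoecium libraries, and nearly all of that came from PI and AP3. The markers AHA9, QRT3 and ACA9, which stood far above CKX3 in stamens, had no count in gynoecia. Neither had MS1 and MGH3, which stood below CKX3 in stamens, nor CKX2. AMS, above CKX3 in stamens, had 9 counts in gynoecia in all. Whether stamen tissue had a part in the CKX3 counts of gynoecia was not tested.

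CKX5 (AT1G75450) was counted in all 9 libraries and fell in steps from stamens to gynoecia to leaf. It stood at 71.3, 69.9 and 70.6 CPM in stamens, at 7.80, 8.26 and 6.57 CPM in gynoecia and at 2.60, 2.92 and 3.06 CPM in leaf. No tissue overlapped another. Stamens were 9.36-fold above gynoecia (log2 difference 3.23, SE 0.0769, adjusted p = 3.95e-44) and 24.7-fold above leaf (4.62, SE 0.103, adjusted p = 7.01e-46). Gynoecia were 2.64-fold above leaf (1.39, SE 0.143, adjusted p = 1.54e-13).

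CKX7 (AT5G21482), the cytosolic enzyme, ran the other way. Its stamen levels were 10.4, 9.96 and 8.57 CPM, its gynoecium levels 20.8, 20.6 and 20.5 CPM, and its leaf levels 25.4, 25.5 and 29.3 CPM. All stamen libraries were below all others. Stamens were 2.14-fold below gynoecia (log2 difference -1.09, SE 0.0928, adjusted p = 1.09e-16) and 2.78-fold below leaf (-1.47, SE 0.095, adjusted p = 6.38e-22). The smaller step between gynoecia and leaf depended on the scaling: it was -0.38 (SE 0.0812, adjusted p = 2.85e-05) with TMM and 0.27 (adjusted p = 0.00219) with library totals.

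CKX4 (AT4G29740) was the leaf counterpart of CKX2, at a lower level. It had 66, 76 and 88 counts in leaf, or 5.05, 5.41 and 6.27 CPM, and no count in stamens or gynoecia. Leaf was at least 31.2-fold above stamens (adjusted p = 2.95e-21) and at least 42.7-fold above gynoecia (adjusted p = 5.12e-23).

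The remaining oxidase genes had too few counts to test in the main fit. CKX1 (AT2G41510) had 4, 2 and 4 counts in stamens, 1, 5 and 5 in gynoecia and none in leaf, and 35.2% of its exon bases lie in genes on the opposite strand. Without a filter on low counts CKX1 was tested, and on these few counts it was called higher in stamens and in gynoecia than in leaf. CKX6 (AT3G63440) had no count in any library, which allows up to 3 counts in each. Of its exon bases, 91.5% also lie in AT3G63445 on the opposite strand, which had 264 to 295 counts in stamens, 165 to 194 in gynoecia and 20 to 29 in leaf. Reads in such shared bases may not have been assigned to CKX6, so its absence from these tissues was not shown.

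**Figure D1:**
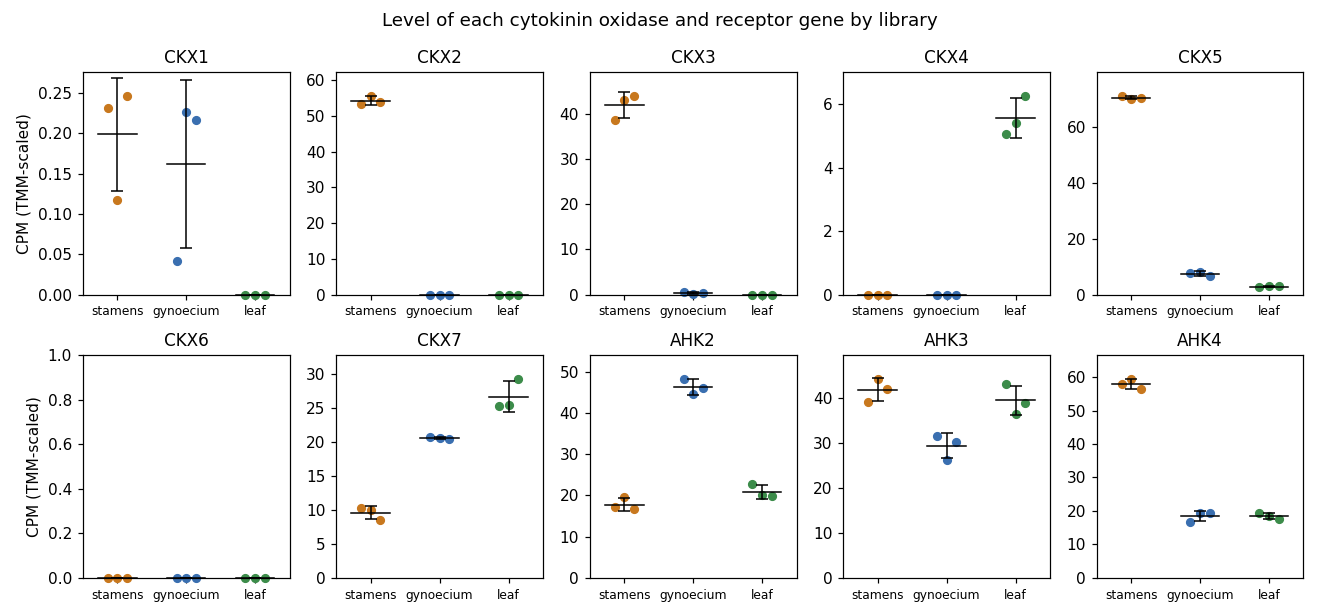
Level of each of the 10 genes in CPM (vertical axes, each from 0 with its own range) in the 3 libraries of stamens, gynoecium and leaf; points are libraries, long bars are means and error bars are SD (n = 3). CKX2, CKX3, CKX5 and AHK4 are highest in stamens, AHK2 in gynoecia and CKX4 in leaf, while CKX6 is at 0 throughout.

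The receptor genes were counted in all 9 libraries, and their differences between tissues ran from no called difference to 3.14-fold, a range that also holds those of CKX7. AHK4 (AT2G01830), the receptor known for its role in vascular and root development, stood at 58.0, 59.4 and 56.4 CPM in stamens, at 16.8, 19.5 and 19.4 CPM in gynoecia and at 19.3, 18.5 and 17.5 CPM in leaf. All stamen libraries were above all others, while gynoecia and leaf overlapped. Stamens were 3.12-fold above gynoecia (log2 difference 1.64, SE 0.066, adjusted p = 5.27e-32) and 3.14-fold above leaf (1.65, SE 0.0721, adjusted p = 2.96e-30). Gynoecia and leaf differed by 0.01 (SE 0.0804, adjusted p = 0.996) with TMM, but by 0.65 (adjusted p = 1.55e-10) with library totals.

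AHK2 (AT5G35750) was highest in gynoecia. The gynoecium libraries had 48.3, 44.6 and 46.1 CPM, the stamen libraries 17.1, 19.6 and 16.6 CPM, and the leaf libraries 22.9, 20.0 and 19.9 CPM. Every gynoecium library lay above every library of the other tissues. Gynoecia were 2.60-fold above stamens (log2 difference of stamens to gynoecia -1.38, SE 0.0714, adjusted p = 2.04e-26) and 2.22-fold above leaf (1.15, SE 0.0723, adjusted p = 1.97e-22). The difference of stamens to leaf was -0.23 (SE 0.0847, adjusted p = 0.00998). It was not called without stamen replicate 1 (adjusted p = 0.0558), without stamen replicate 3 (0.0571), without leaf replicate 1 (0.0946), or with library totals (0.978).

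AHK3 (AT1G27320), the receptor known for delaying leaf senescence, varied least. It stood at 39.0, 44.1 and 42.0 CPM in stamens, at 31.5, 26.2 and 30.2 CPM in gynoecia and at 42.9, 36.4 and 38.8 CPM in leaf. Stamens and leaf overlapped (log2 difference 0.09, SE 0.0691, adjusted p = 0.241), and gynoecia were lowest with TMM but not with library totals. With TMM, stamens were 1.42-fold above gynoecia (0.51, SE 0.067, adjusted p = 6.49e-10) and gynoecia were 1.34-fold below leaf (-0.42, SE 0.0696, adjusted p = 1.74e-07). With library totals the first difference was 0.10 and not called (adjusted p = 0.17), the second turned to 0.22 (adjusted p = 0.00298), and stamens were called higher than leaf by 0.32 (adjusted p = 3.66e-05), so the order of the tissues for AHK3 rests on the scaling.

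**Figure D2:**
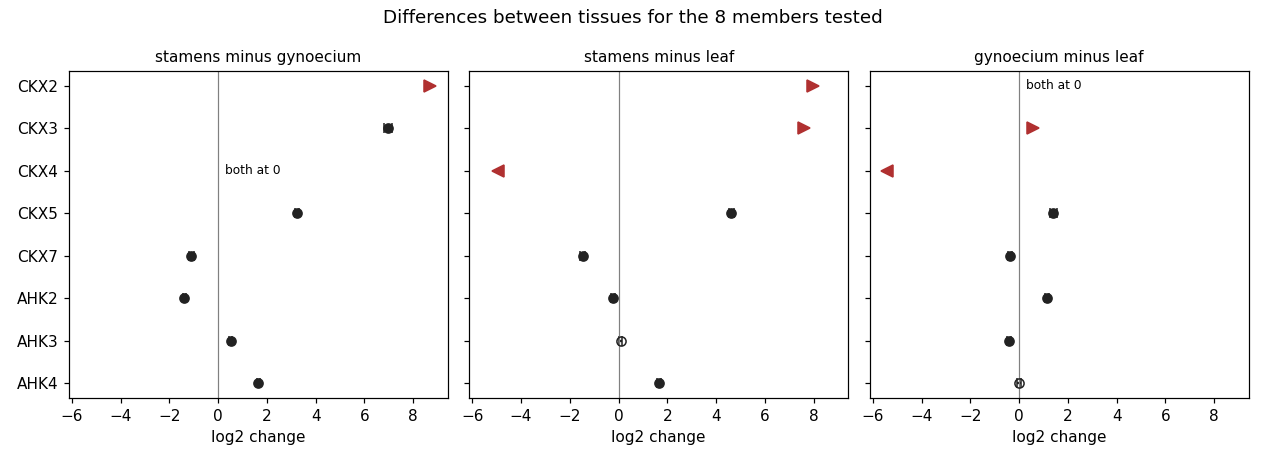
Log2 difference between tissues (horizontal axes) for the 8 genes tested; circles are edgeR estimates with SE, filled where the adjusted p is under 0.05 and open otherwise, and triangles are lower bounds where a tissue had no count. The largest differences are those of CKX2 and CKX3, and with TMM the open circles are AHK3 for stamens against leaf and AHK4 for gynoecia against leaf.

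Counted together, 7 of the 8 members tested differed between stamens and gynoecia, 5 higher and 2 lower in stamens, with CKX4 at 0 in both. Of all 20827 genes, 85.3% were called in that comparison, 46.3% higher and 39.0% lower in stamens. Between stamens and leaf 7 of 8 were called, 4 higher and 3 lower, against 87.9% of all genes, 50.0% higher and 37.9% lower. Between gynoecia and leaf 6 of 8 were called, 3 higher and 3 lower, against 82.5% of all genes, 42.6% higher and 40.0% lower. Of the genes called, 54.3% were higher in stamens than in gynoecia and 51.6% higher in gynoecia than in leaf with TMM, against 39.8% and 67.3% with library totals. With library totals, 4 members were higher and 2 lower in stamens than in gynoecia, 5 higher and 2 lower in stamens than in leaf, and 6 higher and 1 lower in gynoecia than in leaf. These shares are near those of all genes, so that members differed at all does not set them apart. The median log2 difference of the CKX genes tested with a count in either tissue was 5.09 between stamens and gynoecia and 4.62 between stamens and leaf, against medians of 0.09 and 0.23 over all genes. Between gynoecia and leaf it was 0.51, or 0.11 with genes at 0 taken at the floor, against 0.00 over all genes. For the 3 AHK genes the medians were 0.51, 0.09 and 0.01 in the same order. Medians over all genes, here and below, keep genes at 0 in both tissues, while medians of a list leave them out. This left out CKX4 between stamens and gynoecia and CKX2 between gynoecia and leaf. Kept in, they would lower both of those CKX medians, so the medians are not fully alike. CKX2 and CKX3 passed the filter on low counts through their stamen counts alone, and CKX4 through its leaf counts alone. The CKX medians are thus given as descriptions only. The comparisons with leaf share the leaf libraries.

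Because each gene's FPKM is divided by its length, the members can also be weighed against each other within a library, where library scaling has no part. In stamens CKX2 led with 37.8 ± 0.379% of the summed FPKM of the oxidase family (mean ± SD, n = 3), followed by CKX5 with 30.0 ± 0.86% and CKX3 with 26.7 ± 1.41%, and these 3 genes made up 94.5 ± 0.582%. The FPKM ranges of neighbours in this order did not overlap. In gynoecia CKX7 alone held 76.9 ± 1.51% and CKX5 21.3 ± 2.01%, and in leaf CKX7 held 79.0 ± 0.678%, CKX4 14.6 ± 0.464% and CKX5 6.40 ± 0.343%. The ratio of CKX5 to CKX7 FPKM was 5.20, 5.31 and 6.23 in stamens, 0.284, 0.304 and 0.243 in gynoecia and 0.0775, 0.0866 and 0.079 in leaf. The leading oxidase gene of stamens was thus one with no count elsewhere, and the leading gene of gynoecia and leaf was the same. Shares of CKX2 and CKX5 divide by whole exon length although 38.6% and 28.8% of it overlaps other genes, and CKX6 has no FPKM value.

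Each tissue had a different leading receptor gene by FPKM. AHK4 made up 50.4, 47.8 and 48.6% of summed receptor FPKM in the stamen libraries, AHK2 50.4, 49.8 and 48.6% in the gynoecium libraries, and AHK3 50.4, 48.6 and 50.9% in the leaf libraries. The leading gene lay above the next in every library of its tissue: in stamens AHK4 was at 11.8 FPKM or more and AHK3 at 9.34 or less, in gynoecia AHK2 was at 12.8 or more and AHK3 at 8.87 or less, and in leaf AHK3 was at 6.58 or more and AHK2 at 4.18 or less. The ratio of AHK4 to AHK2 FPKM was 3.30, 2.96 and 3.30 in stamens, 0.339, 0.426 and 0.411 in gynoecia and 0.825, 0.902 and 0.859 in leaf. AHK3, in contrast, held 35.7 ± 1.19% in stamens and 31.0 ± 1.82% in gynoecia.

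Oxidase and receptor transcripts did not keep a constant proportion. Summed oxidase FPKM was 3.35, 3.23 and 3.42 times summed receptor FPKM in the stamen libraries, 0.614, 0.656 and 0.594 times in gynoecia and 0.818, 0.950 and 1.07 times in leaf. The 3 tissues did not overlap in this ratio. The sums behind it, which FPKM scales by library totals, were 82.8 ± 1.16 FPKM of oxidases in stamens, 16.6 ± 0.36 in gynoecia and 13.4 ± 1.17 in leaf, and 24.8 ± 0.937, 26.7 ± 0.952 and 14.2 ± 0.995 FPKM of receptors.

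**Figure D3:**
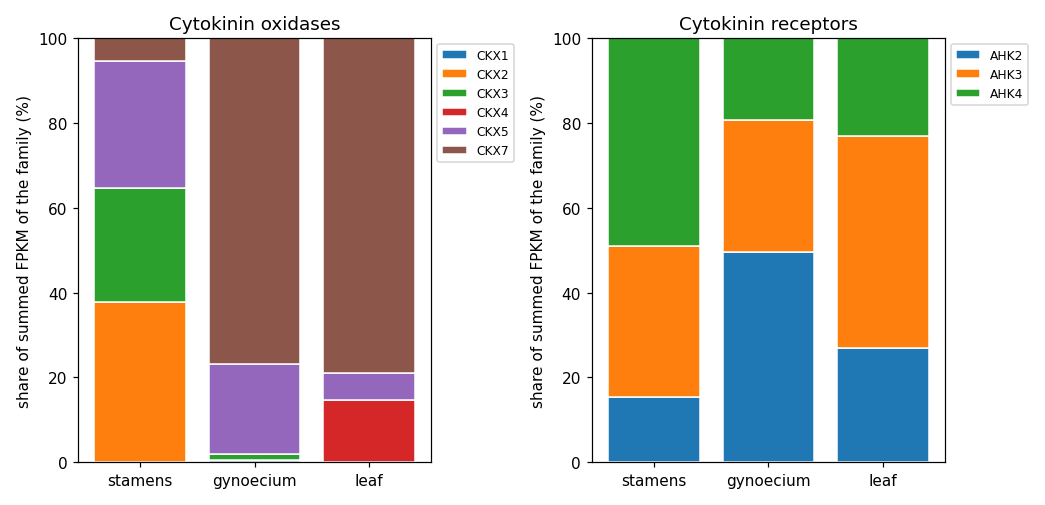
Share of each gene in the summed FPKM of its family (vertical axes, %, mean of 3 libraries) in stamens, gynoecium and leaf, for the oxidase genes with an FPKM value and for the receptors. CKX2, CKX3 and CKX5 fill 94.5% of the stamen bar and CKX7 fills 76.9% of the gynoecium bar and 79.0% of the leaf bar, while AHK4, AHK2 and AHK3 lead in stamens, gynoecia and leaf.

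Other genes of the pathway were read from lists written out by role, for which counts and medians are given as descriptions. Cytokinin synthesis begins with IPT enzymes, and CYP735A enzymes convert the product of some of them to trans-zeatin forms. Of 11 IPT and CYP735A genes, which do not all belong to that route, 6 could be tested and 3 had no count in any library. Between stamens and gynoecia 3 were higher and 2 lower in stamens (median log2 difference 1.48, against 0.09 over all genes), between stamens and leaf 4 were higher and 2 lower, and between gynoecia and leaf 2 were higher and 3 lower in gynoecia. Of the 2 lower in stamens than in gynoecia, IPT9 (adjusted p = 0.00437) was not called without gynoecium replicate 2 (0.0532). IPT3 stood at 58.3 ± 2.32 CPM in leaf. It had no count in stamens or gynoecia and is left out of the median between them. IPT9 was also highest in leaf, at 13.2 ± 1.97 CPM against 4.78 ± 0.141 in stamens and 6.51 ± 0.845 in gynoecia. IPT1 stood at 22.7 ± 0.374 CPM in stamens, 8.12 ± 0.428 in gynoecia and 0.492 ± 0.276 in leaf. CYP735A1 had the distribution of CKX2, with 25.7 ± 2.19 CPM in stamens and no count in the other tissues, at least 197-fold above gynoecia and at least 117-fold above leaf.

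LOG enzymes release active cytokinin from its nucleotides. Of 8 LOG genes 6 were tested. Between stamens and leaf 5 were higher and 1 lower in stamens, and between gynoecia and leaf 4 were higher and 1 lower in gynoecia, though with library totals 5 were higher and none lower in both comparisons. The 1 lower in stamens was LOG1, at 23.3 ± 0.998 CPM against 27.0 ± 3.53 in leaf, with libraries that overlapped (adjusted p = 0.0176). It was also not called with DESeq2 (0.0546), with limma-voom (0.0846), on log2 FPKM plus 1 (0.771) or plus 0.1 (0.773), or without leaf replicate 1 (0.164) or 2 (0.0756). Between gynoecia and leaf, LOG1 was called lower without leaf replicate 3 (0.0165) and higher with library totals (3.11e-08). Between stamens and gynoecia 1 was higher, 2 were lower and 3 were not called, which became 1, 4 and 1 with library totals. Of those not called, LOG4 was lower without stamen replicate 3 (adjusted p = 0.0102) or gynoecium replicate 3 (0.0394), and LOG7 was higher without stamen replicate 1 (0.0163) or gynoecium replicate 2 (0.0443). LOG3 was higher in gynoecia, with 44.8 ± 1.49 CPM, than in stamens, with 14.8 ± 0.672 CPM. LOG5 had 51.1 ± 2.19 CPM in gynoecia and 10.7 ± 0.756 CPM in stamens, and neither gene had a count in leaf. LOG8 was highest in stamens, at 24.6 ± 1.65 CPM against 5.36 ± 0.431 in gynoecia (adjusted p = 2.08e-28).

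The AHP phosphotransfer proteins, which carry the signal from the receptors, were all lower in the floral organs than in leaf with TMM. All 4 genes tested of 6 fell below leaf in stamens and in gynoecia (median log2 differences -1.29 and -1.13, against 0.23 and 0.00 over all genes), but with library totals only 2 of the 4 were called lower in gynoecia. AHP1 stood at 8.06 ± 0.907 CPM in leaf and 2.58 ± 0.679 in stamens and had no count in gynoecia.

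The type-B response regulators are the transcription factors that turn on cytokinin target genes. Of 11 listed, 7 were tested, 3 higher and 4 lower in stamens than in gynoecia. Against leaf, 5 were higher and 2 lower in stamens, and 5 were higher and 1 lower in gynoecia, the latter being ARR10, which was not called with library totals and was called higher on log2 FPKM plus 1 (adjusted p = 0.0485) and plus 0.1 (0.0476). One of the genes lower in stamens than in gynoecia, ARR12 (log2 difference -0.11, adjusted p = 0.0208), was not called with DESeq2 (0.0686), without stamen replicate 1 (0.0752) or 2 (0.0939), or without gynoecium replicate 1 (0.08) or 3 (0.257). ARR1 had 154 ± 2.38 CPM in stamens, 173 ± 0.48 in gynoecia and 76.2 ± 4.79 in leaf. ARR2 was highest in stamens, at 110 ± 4.50 CPM against 47.9 ± 2.16 in gynoecia. ARR14 was highest in gynoecia, at 31.8 ± 3.56 CPM against 4.83 ± 0.398 in stamens. ARR10 was low in stamens, at 18.8 ± 0.81 CPM against 59.1 ± 0.875 in gynoecia and 86.3 ± 2.01 in leaf, where it stood above ARR1.

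The type-A response regulators are induced by cytokinin and dampen its signal. Of 10 genes, 8 were tested. Compared with gynoecia, 5 were higher and 1 lower in stamens, or 4 and 3 with library totals, and ARR8 was also lower without stamen replicate 2 (adjusted p = 0.00693). Compared with leaf, 4 were higher and 4 lower in stamens, and 1 was higher, or 2 with library totals, and 6 were lower in gynoecia (median log2 difference -1.39). One of the 4 higher in stamens than in leaf, ARR9 (log2 difference 0.18, adjusted p = 0.042), was not called with upper quartile factors (0.148), with DESeq2 (0.0539), without stamen replicate 2 (0.0955) or 3 (0.103), or without leaf replicate 2 (0.181) or 3 (0.055). ARR4 stood at 350 ± 6.59 CPM in leaf, 107 ± 1.93 in stamens and 47.4 ± 2.76 in gynoecia. ARR16 stood at 188 ± 2.75 CPM in stamens, 106 ± 2.57 in leaf and 0.93 ± 0.156 in gynoecia, a 202-fold difference between the floral organs (adjusted p = 1.97e-63). ARR6 was higher in stamens, at 23.1 ± 1.54 CPM against 3.07 ± 0.262 in gynoecia, while ARR7 was lower, at 0.299 ± 0.128 against 2.67 ± 0.208.

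The cytokinin response factors, AP2-type transcription factors that respond to the hormone, were all tested. Of the 6, 2 were higher and 4 lower in stamens than in gynoecia, and 5, or 6 with library totals, were higher and none lower in gynoecia than in leaf (median log2 difference 1.91). The remaining gene there, CRF1, was called without leaf replicate 2 (adjusted p = 0.0454). CRF2 stood at 46.6 ± 1.93 CPM in gynoecia, 10.1 ± 0.68 in stamens and 9.95 ± 1.52 in leaf. CRF4 was highest in stamens, at 6.91 ± 1.09 CPM against 3.01 ± 0.944 in gynoecia.

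**Figure D4:**
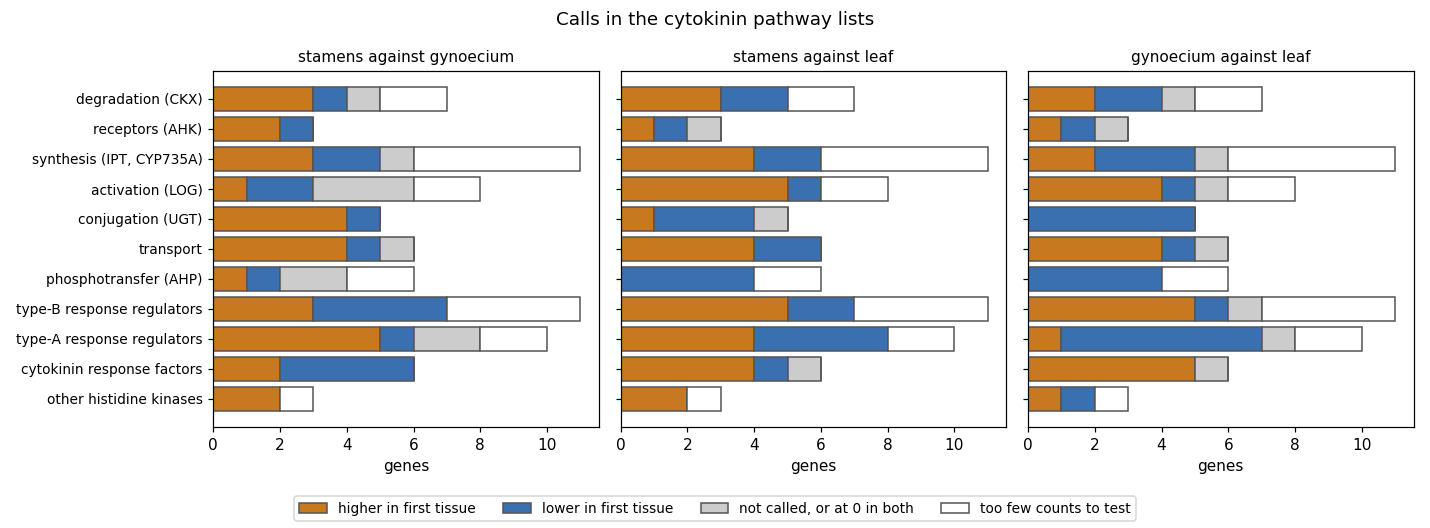
Number of genes in each cytokinin list (horizontal axes) called higher or lower in the first tissue named, not called or at 0 in both tissues, or with too few counts to test. All 4 AHP genes tested are lower in stamens and in gynoecia than in leaf with TMM, a count that fell to 2 of 4 for gynoecia with library totals.

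The genes whose profiles came nearest to those of the members were sought among 8896 tested genes with a symbol, by the root mean square difference of log2 CPM over the 9 libraries after each gene was centred on its own mean. For CKX2 the nearest was PERK5 (difference 0.03), a receptor-like kinase gene with 54.1 ± 3.61 CPM in stamens and no count in the other tissues. For AHK2 it was BBX12 (0.0592), for AHK3 OXP1 (0.048) and for AHK4 pPLAIIIbeta (0.0623), a patatin-related phospholipase gene at 49.5 ± 1.42 CPM in stamens, 16.1 ± 0.72 in gynoecia and 15.3 ± 0.697 in leaf. For CKX4 it was MLP43 (0.0873), and for CKX7 the uracil phosphoribosyltransferase gene UPP (0.0863). For CKX5 it was the carboxypeptidase-like gene SCPL32 (0.179), at 2.12 ± 0.362 CPM in stamens, 0.174 ± 0.0406 in gynoecia and no count in leaf, where CKX5 was counted. The prior count of 2 added before taking log2 sets the differences of such low genes, so this likeness rests on it. It also sets log2 CPM where a gene has no count. The likeness of CKX2 to PERK5 thus rests on the stamen libraries, and that of CKX4 to MLP43 on the leaf libraries. The largest of these differences was that of CKX3 to the laccase gene LAC17 (0.341). The median difference over all genes compared was 4.21 for CKX2 and 0.855 for AHK3, so the differences are not on the same footing between members.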

How the data were processed

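The authors deposited whole-number counts of reads per gene and an FPKM table. The submitters' processing notes list HTSeq 0.6.0, TopHat2, HISAT2 2.1.0 and Bowtie2 2.2.3, and the TAIR10 genome, without order or role; filters and strand setting are not given in the sources used here. The length behind each deposited FPKM, computed from count, FPKM and library total, matched the exon length of the TAIR10.1 annotation within 0.5 bases at 24044 of 24180 loci and at the 9 members with an FPKM value. Symbols and exon overlap came from that annotation. Its coordinates, and sequences, are not printed.

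Counts were tested with edgeR 4.0.16 (R 4.3.3): filterByExpr by group left 20827 genes, TMM factors ran from 0.815 to 1.28, and a robust quasi-likelihood model of the 9 libraries had a mean for each tissue. A gene was called when its p, adjusted by Benjamini-Hochberg over the genes tested, was under 0.05. SE is the log2 change divided by the root of the F statistic. The steps were also run on simulated data in which few genes changed and all genes had the same spread. Most genes are called in the data here, so that run does not bear on the choice of scaling. TMM and library totals differ by a shift in the median of all genes of -0.37 between stamens and gynoecia, 0.23 between stamens and leaf and 0.55 between gynoecia and leaf on the log2 scale.

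The members, lists, tests and alternatives were chosen with earlier results of these data known. Of 67 other listed genes, 66 are described. ENT8 is not, since its locus carries no such symbol in the annotation. Named genes are, per list, the one of highest level and the called genes of at least 5 CPM that changed most, of which a selection is given. AHK5, CKI1 and some genes whose call rests on single libraries were added after their values were seen. The alternatives covered scaling (library totals, upper quartile, DESeq2 size factors), filters, DESeq2 1.42.0, limma-voom (limma 3.58.1), limma on log2 of FPKM plus 1 or 0.1, a replicate block, fits to a comparison's own libraries, and leaving out each library.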

Additional observations from a re-analysis of the deposited data

How the results depend on the processing

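The counts of genes and of members called stayed within 1.5 times the main count under all alternatives run. That band left little room for change, since most genes and members were called in the main fit. Directions moved more. Between gynoecia and leaf, 3 members higher and 3 lower became 6 and 1 with library totals and on log2 FPKM plus 1 or plus 0.1. Members called ran from 6 to 7 between stamens and gynoecia, 6 to 8 between stamens and leaf and 6 to 7 between gynoecia and leaf. Of the 93 differences of single genes followed, 75 kept their direction and their side of the threshold under all alternatives, among them all those of CKX2, CKX3, CKX4 and CKX5 and those of AHK4 and AHK2 between stamens and gynoecia. The 18 exceptions concern AHK2, AHK3, AHK4, CKX7 and the listed genes whose lost or gained calls the text gives. Some listed genes outside the 93 changed too. PUP14 between stamens and leaf turned from -0.12, called lower, to 0.11, called higher, with library totals. AHP3 between stamens and gynoecia lost its call with DESeq2 and without stamen replicate 2 or 3 or gynoecium replicate 1 or 2. CRF6 between stamens and leaf lost its call without leaf replicate 1. Between gynoecia and leaf, CKX7 turned from -0.38 to 0.27 with library totals and to 0.25 and 0.27 on log2 FPKM plus 1 and plus 0.1, AHK3 from -0.42 to 0.22, 0.19 and 0.22, ARR10 from -0.54 to 0.10, 0.0968 and 0.0994, and LOG1 from -0.11 to 0.53, 0.50 and 0.53. LOG1 between stamens and leaf turned from -0.21 to 0.0264, 0.0283 and 0.0308. AHK4 between gynoecia and leaf, not called with TMM, was 0.65, 0.52 and 0.64 under the same settings. With each library left out, it ranged from a lowest of -0.0285 to a highest of 0.0825. It was -0.0212 and -0.0219 without gynoecium replicate 2 or 3 and -0.0285 without leaf replicate 3. AHK2 between stamens and leaf was 0.0035 with library totals. FPKM carries no TMM factor, and these settings share that construction. The replicate numbers showed no sign of pairing the libraries. Deviations from the group means correlated by -0.0521 to 0.0541 between same-numbered libraries of different tissues and by -0.0412 to 0.0495 between differently numbered ones. Of the 9 libraries, 1 correlated better with both libraries of its own number than with any other. These values cannot tell whether same-numbered libraries shared plants or a batch. With the replicate number as a block, 17644, 18204 and 17100 genes and 7, 7 and 6 members were called, and of the genes named here ARR9 between stamens and leaf lost its call (adjusted p = 0.0534).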

Other observations

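Conjugation and transport genes of the cytokinin pathway also differed between the tissues. UGT enzymes attach glucose to cytokinins, and all 5 listed were lower in gynoecia than in leaf (median log2 difference -4.15, which became -3.88 when genes at 0 were taken at the floor of 3 counts), 4 of them with library totals. Between stamens and gynoecia 4, or 3 with library totals, were higher and 1 lower in stamens. UGT76C1, one of those higher (adjusted p = 0.00448), was not called without gynoecium replicate 1 (0.0506). UGT85A1 stood at 39.8 ± 1.48 CPM in leaf, 6.50 ± 0.0943 in stamens and 0.293 ± 0.103 in gynoecia. UGT73C5 stood at 36.9 ± 2.03 CPM in stamens, 27.3 ± 0.54 in leaf and 3.94 ± 0.354 in gynoecia, and UGT76C1 at 24.6 ± 2.59 CPM in leaf against 2.22 ± 0.191 in stamens and 1.39 ± 0.366 in gynoecia. Of 6 transport genes, 4, or 3 with library totals, were higher and 1 lower in stamens than in gynoecia, and PUP2, one of those higher (adjusted p = 0.0021), was not called without stamen replicate 2 (0.0612). The purine permease gene PUP14 was highest in gynoecia, at 171 ± 3.49 CPM against 104 ± 2.02 in stamens, PUP1 in leaf, at 75.8 ± 0.13 CPM, and the nucleoside transporter gene ENT3 in stamens, at 90.3 ± 3.62 CPM against 18.2 ± 0.501 in gynoecia and 7.72 ± 1.05 in leaf.

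Histidine kinases that are not cytokinin receptors were listed beside the AHK genes. AHK1, known from osmotic stress signalling, stood at 86.9 ± 1.49 CPM in stamens, 43.5 ± 0.714 in leaf and 17.3 ± 1.96 in gynoecia, and differed 5.04-fold between the floral organs (adjusted p = 4.45e-42). AHK5 had 4.46 ± 0.301 CPM in stamens, 1.47 ± 0.257 in gynoecia and no count in leaf. CKI1, known from the female gametophyte, had no count in any library, which allows up to 3 counts in each.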
